A study of Mus musculus with 4 samples.

Results

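*Cd36* and *Pparg*, a fatty acid uptake gene and a master regulator of fat cells, were followed as 2 of the 470 genes counted cell by cell in mouse vagal ganglia. They were taken by name as rows of the count table, and the cells that hold them were sorted by the counts of 8 other genes. *Cd36* encodes a scavenger receptor of the cell surface that takes up long-chain fatty acids and oxidized lipoproteins, and it is known from fat cells, capillary endothelium of fat, muscle and heart, and macrophages. *Pparg* encodes PPAR gamma, a nuclear receptor that binds DNA together with RXR, switches on the program of fat cells and has *Cd36* among its best known targets. Endothelial cells and some macrophages also use PPAR gamma. The vagal ganglia house the cell bodies of sensory neurons that serve the airways, with satellite glia, Schwann cells, vessels and connective tissue between them.

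By their labels, the ganglia came from adult male C57BL/6 mice, while the paper names C57BL/6J mice of both sexes for its experiments. The mice were sensitized with *A. alternata*, a mould extract that induces an allergic asthma model. Each mouse received 50 µL at 25 µg/mL intranasally on days 0, 3, 6 and 9, and tissue was collected 16 hours after the last dose, fixed in paraformaldehyde, embedded in paraffin and cut into slices of 5 µm. Xenium, an imaging assay that decodes gene probes in place and assigns each transcript to a segmented cell, was run on 3 ganglia sections. All of them were from sensitized mice and none from PBS mice, so no level here is a response to the extract, and a lung section was not analysed here. The labels do not tie the sections to separate mice, so p-values measure only the spread between these sections, which may be technical.

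The sections held 3211, 2716 and 3858 cells with 70313, 73733 and 108121 transcripts, with medians of 7, 9 and 9 per cell. Decoding of negative control probes gave 13, 21 and 50 events. No cell identifier was shared between sections. The intervals (95%, Wilson) and the limits for counts of 0 (3 counts of the total) given below cover counting error only.

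*Cd36* lies on chromosome 5 (chr5:17781690-17888959) and *Pparg* on chromosome 6 (chr6:115360879-115490404) in RefSeq annotation of GRCm38.p6. The promoters are shown because the receptor made by one gene is known to act on the other, and because the transcripts of both were found in the same cells below. RefSeq lists 1 start site for *Cd36* and 3 for *Pparg* in the table used, and each window covers 250 bases before the start and 50 after it. Capitals mark AGGTCA, the core hexamer bound by nuclear receptors, or TGACCT, its reverse complement.

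Cd36 promoter, chr5:17835847-17836146, minus strand: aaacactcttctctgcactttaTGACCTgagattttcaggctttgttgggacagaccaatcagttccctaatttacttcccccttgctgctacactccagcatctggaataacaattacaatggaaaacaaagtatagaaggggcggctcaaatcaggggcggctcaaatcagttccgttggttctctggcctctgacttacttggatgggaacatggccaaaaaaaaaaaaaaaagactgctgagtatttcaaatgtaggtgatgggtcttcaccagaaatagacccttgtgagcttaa
Pparg promoter 1, chr6:115360894-115361193, plus strand: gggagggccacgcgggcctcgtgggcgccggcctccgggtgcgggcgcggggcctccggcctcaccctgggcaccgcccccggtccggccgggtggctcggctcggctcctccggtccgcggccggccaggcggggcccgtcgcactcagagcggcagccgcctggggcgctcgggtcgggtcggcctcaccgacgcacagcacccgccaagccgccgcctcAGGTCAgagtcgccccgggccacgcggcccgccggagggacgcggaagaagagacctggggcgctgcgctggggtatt
Pparg promoter 2, chr6:115362099-115362398, plus strand: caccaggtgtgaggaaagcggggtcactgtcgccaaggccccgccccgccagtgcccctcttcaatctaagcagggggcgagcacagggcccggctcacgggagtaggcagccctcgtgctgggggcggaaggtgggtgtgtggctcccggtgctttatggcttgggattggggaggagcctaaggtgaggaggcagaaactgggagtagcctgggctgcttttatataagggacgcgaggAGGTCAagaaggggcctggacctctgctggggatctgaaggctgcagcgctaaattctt
Pparg promoter 3, chr6:115421816-115422115, plus strand: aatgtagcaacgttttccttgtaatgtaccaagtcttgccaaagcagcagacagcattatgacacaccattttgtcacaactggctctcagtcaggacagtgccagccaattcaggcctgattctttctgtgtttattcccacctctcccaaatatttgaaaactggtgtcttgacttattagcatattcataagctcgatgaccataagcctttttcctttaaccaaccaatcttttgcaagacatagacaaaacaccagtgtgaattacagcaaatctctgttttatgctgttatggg

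The hexamer began at base -228 from the start in the *Cd36* promoter, and at bases -28 and -9 in the first and second *Pparg* promoters. The third *Pparg* promoter had no match. Of 32851 promoters of the same length in the table, 5340 (16.3%) held the hexamer on either strand. The element best known for PPAR gamma, a direct repeat of AGGTCA with a single base between the copies, was in 13 of them (0.0396%) and in none of those shown. These matches describe letters and not binding.

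*Cd36* was the more abundant of the pair, with 2049 transcripts in 1008 cells, rank 34 of 470 genes. Section 1 had 634, section 2 had 504 and section 3 had 911 transcripts. Scaled to the total of each section as CPM, these were 9017, 6835 and 8426, so that section 2 was the lowest and section 1 the highest. A cell with *Cd36* held 1 transcript in 510 cases, 2 in 226 and 3 or more in 272, up to 9.

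*Pparg* had 480 transcripts in 395 cells, rank 100, as is common for a transcription factor. There were 127, 146 and 207 transcripts in sections 1, 2 and 3, or 1806, 1980 and 1915 CPM. Its level was thus closer between sections than that of *Cd36*, and the order of the sections was not the same. Most of its cells, 328 of 395, held a single transcript, and none held more than 4.

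To find which cells carried them, cells with at least 5 transcripts of the neuron genes *Snap25*, *Tubb3*, *Scg2* and *Gap43* were set apart as neurons (427, 435 and 542 per section). The other 8381 cells were sorted by the metabolic enzyme genes *Car3* (carbonic anhydrase 3, abundant in fat and muscle) and *Pck1* (PEPCK, which feeds glycerol synthesis in fat cells), and by the capillary genes *Kdr* (VEGF receptor 2) and *Gpihbp1* (which carries lipoprotein lipase to the capillary wall). *Kdr* was also found in neurons, with 196 of its 389 transcripts. Scaled to all transcripts, it was lower there, at a mean of 1169 CPM against 2311 CPM in the other cells. Of the 122 *Gpihbp1* transcripts, 77 were in cells other than neurons with at least 3 transcripts of *Car3* and *Pck1*. Cells with at least 3 transcripts of *Car3* and *Pck1* numbered 300, 267 and 353. They held 81.4%, 82.3% and 81.4% of all *Cd36* transcripts in sections 1, 2 and 3 (81.7% ± 0.534, SD, n = 3 sections). For *Pparg* the shares were 73.2%, 78.1% and 77.8% (76.4% ± 2.72). These 920 of 9785 cells therefore held 1673 of 2049 *Cd36* and 368 of 480 *Pparg* transcripts.

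Within these cells, those with no transcript of *Kdr* or *Gpihbp1* are called Car3/Pck1 cells (772) and those with at least 1 are called double cells (148). Cells with *Kdr* or *Gpihbp1* and fewer than 3 of *Car3* and *Pck1* are called Kdr/Gpihbp1 cells (127), and the rest remaining cells (7334). *Cd36* stood at 1.59, 1.48 and 2.06 transcripts per Car3/Pck1 cell in sections 1, 2 and 3 (1.71 ± 0.311) and at 2.59, 1.98 and 2.26 per double cell (2.28 ± 0.307). It was at 0.135, 0.5 and 0.34 per Kdr/Gpihbp1 cell (0.325 ± 0.183, 42 transcripts) and at 0.0437, 0.0319 and 0.0463 per remaining cell (0.0407 ± 0.00769). The ranges of the upper pair of classes overlapped, while the Kdr/Gpihbp1 cells lay below both and above the remaining cells in every section.

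*Pparg* was at 0.310, 0.420 and 0.498 transcripts per Car3/Pck1 cell (0.410 ± 0.0944) and at 0.308, 0.463 and 0.279 per double cell (0.350 ± 0.0991), with overlapping ranges. Kdr/Gpihbp1 cells had 1, 1 and 0 *Pparg* transcripts, and 0 of 50 cells in section 3 allows a share of up to 6%. Remaining cells had 0.00940, 0.00963 and 0.00790 per cell. Both genes were thus far higher in Car3/Pck1 and double cells than in the other classes. Kdr/Gpihbp1 cells held 42 *Cd36* and 2 *Pparg* transcripts. Their mean of 0.0173 *Pparg* per cell was not below the 0.00897 of remaining cells.

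Depth differed between the classes. The median total was 19, 19 and 23 transcripts in Car3/Pck1 cells, 12, 16 and 14.5 in Kdr/Gpihbp1 cells, 5, 6 and 7 in remaining cells and 79, 82 and 100 in neurons. *Cd36* was detected in 77.0% (95% interval 71.5 to 81.7), 69.0% (62.7 to 74.7) and 81.1% (76.1 to 85.2) of Car3/Pck1 cells and *Pparg* in 26.4% (21.5 to 32.1), 32.7% (27.0 to 39.1) and 35.8% (30.4 to 41.5). When each cell was thinned to 10 transcripts and shallower cells were left out, *Cd36* was found in 54.0% ± 4.02 of Car3/Pck1 cells, 62.0% ± 7.06 of double cells, 13.2% ± 6.38 of Kdr/Gpihbp1 cells, 3.87% ± 0.274 of remaining cells and 0.278% ± 0.0876 of neurons. In the same order, *Pparg* was found in 16.9% ± 2.43, 12.5% ± 4.15, 0.717% ± 1.24, 1.11% ± 0.408 and 0.192% ± 0.0267. At equal depth, both genes thus remained far more often detected in Car3/Pck1 and double cells than in the other classes. The thinned *Pparg* value of Kdr/Gpihbp1 cells came from section 2.

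Both genes rose per cell with the count of *Car3* and *Pck1*. In cells other than neurons with 0, 1 to 2, 3 to 5, 6 to 10 and 11 or more of these transcripts, *Cd36* stood at 0.0266, 0.625, 1.30, 1.79 and 2.38 transcripts per cell over all sections. In the uppermost bin it was 2.30, 1.96 and 2.74 in sections 1, 2 and 3, and in the bin of 3 to 5 it was 1.29, 1.07 and 1.48. *Pparg* stood at 0.00624, 0.0887, 0.234, 0.377 and 0.605 per cell over the same bins, with 0.5, 0.667 and 0.633 in the uppermost and 0.168, 0.236 and 0.294 in the bin of 3 to 5. Each section gave the same order of the bins for both genes.

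Cells with more *Car3* and *Pck1* also had more transcripts in all, with median totals of 13, 20 and 32 in the upper bins. Scaled to the transcripts of genes outside the 8 class genes, *Cd36* was level over these bins at 131609, 133792 and 126784 CPM. *Pparg* was at 23622, 28096 and 32206 CPM, and each section was higher from bin to bin, least so between the uppermost pair in section 3 (29026 and 29626 CPM). On this scale, fuller cells thus had no more *Cd36* but had more *Pparg*.

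**Figure D1:**
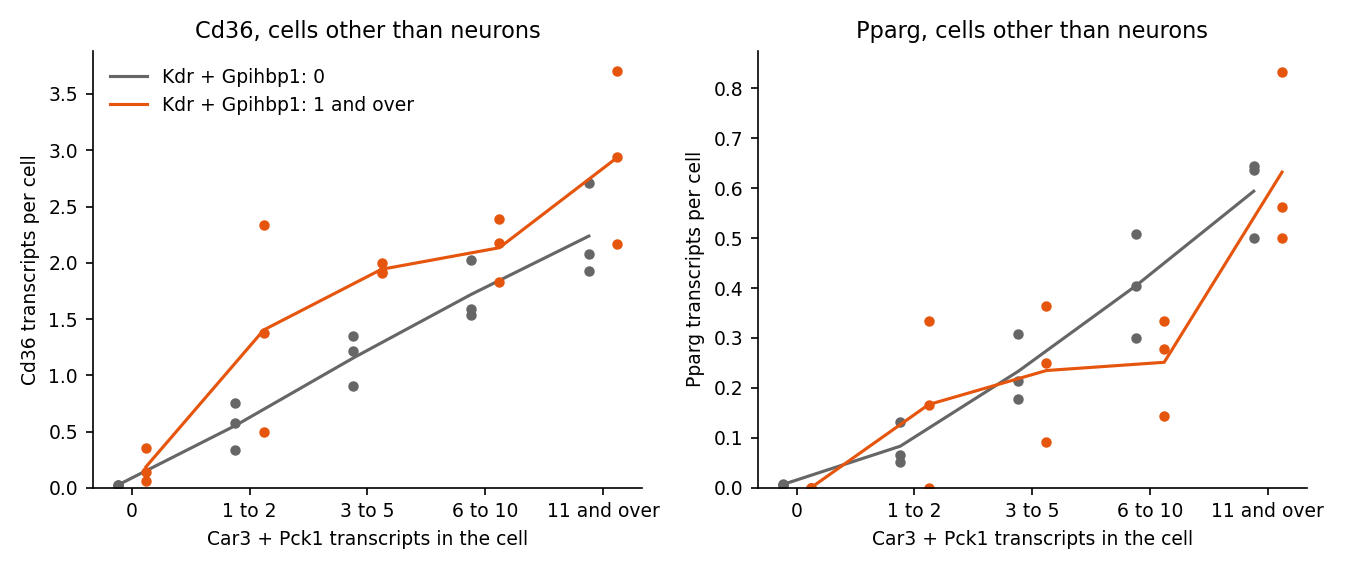
Transcripts per cell of *Cd36* (left) and *Pparg* (right) against the count of *Car3* and *Pck1* in the cell, in bins, for cells other than neurons with no (grey) or at least 1 (orange) transcript of *Kdr* and *Gpihbp1*. Points are 3 sections and lines join their means, and both genes climb from near 0 at 0 *Car3* and *Pck1*, *Cd36* to 2.38 and *Pparg* to 0.605 over all cells with 11 or more.

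Among cells with no *Car3* and no *Pck1*, those with *Kdr* or *Gpihbp1* had 0.0645, 0.351 and 0.143 *Cd36* transcripts per cell (21 in 110 cells), and those with neither had 0.0186, 0.0230 and 0.0294. The ranges did not overlap, although section 2 held 13 of the 21 transcripts. *Pparg* was in 0 of these 110 cells, which allows a share of up to 2.73%, against 0.00634 per cell without *Kdr* and *Gpihbp1*. That limit lies above the level of the other cells, so a difference in *Pparg* was not detectable at this depth. Median totals were 15 and 6 in these groups.

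In cells with 3 to 5 of *Car3* and *Pck1*, *Cd36* was at 1.91, 2 and 1.92 per cell where *Kdr* or *Gpihbp1* was present and at 1.21, 0.902 and 1.35 where it was not. With 6 to 10, the values were 2.39, 1.83 and 2.18 against 1.59, 1.54 and 2.03, which overlap. Cells with *Kdr* or *Gpihbp1* were deeper, with median totals of 18 against 13 and of 23 against 20. Scaled to genes outside the class genes, *Cd36* was higher with *Kdr* or *Gpihbp1* in every section in the bin of 3 to 5 (170732, 178862 and 133333 CPM against 135638, 114345 and 124555), but not in section 3 in the bin of 6 to 10 (135255 against 137092 CPM) nor in sections 2 and 3 in the uppermost bin. *Pparg* showed no such order, with 0.0909, 0.364 and 0.25 against 0.179, 0.213 and 0.308 in the bin of 3 to 5. In the bin of 6 to 10 it was 0.333, 0.278 and 0.143 against 0.301, 0.404 and 0.509.

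The classes were then compared on sums per section with the quasi-likelihood test of edgeR, with the section as a block and p-values adjusted over all genes tested. Car3/Pck1 cells had more *Cd36* than remaining cells by a log2 fold change of 5.18 (SE 0.12, adjusted p = 8.3e-08 from edgeR, higher in 3 of 3 sections) and more *Pparg* by 5.30 (SE 0.25, adjusted p = 2.17e-06). For this contrast alone, cells with a single *Kdr* or *Gpihbp1* transcript were kept in their classes, which then held 906 and 7450 cells. Over the 166 genes tested, the shares higher and lower in Car3/Pck1 cells were 28.3% and 44%, and the median log2 fold change was -0.83, or -1.45 with library size alone. Both genes were thus past the threshold in a contrast where that was common, but at a size well above the median.

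Against Kdr/Gpihbp1 cells, Car3/Pck1 cells had more *Cd36* by 2.49 on the log2 scale (SE 0.43, adjusted p = 0.00184 from edgeR, higher in 3 of 3 sections) and more *Pparg* by 4.68 (SE 0.66, adjusted p = 0.000871). The *Pparg* value rests on 2 transcripts in the Kdr/Gpihbp1 cells. Of only 45 genes tested, 40% were higher and 37.8% lower, with a median of 0.50. Without section 3, *Cd36* kept its size but not its call (2.50, adjusted p = 0.0615 from edgeR).

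Kdr/Gpihbp1 cells had more *Cd36* than remaining cells by 1.71 (SE 0.46, adjusted p = 0.0033 from edgeR, higher in 3 of 3 sections), in a contrast where 7.14% of 154 genes were higher and 7.14% lower. *Pparg* was at -0.45 (SE 1.07, adjusted p = 0.803 from edgeR), again with 2 transcripts. The call for *Cd36* was lost without section 2 (1.09, adjusted p = 0.198 from edgeR) and without section 3 (1.58, adjusted p = 0.39). Kdr/Gpihbp1 cells also held 0.297, 0.125 and 0.26 transcripts of *Car3* and *Pck1* per cell, against 0.0462, 0.0360 and 0.0409 in remaining cells, and a cut at 1 such transcript, chosen after seeing the data, left *Cd36* at 1.65 (adjusted p = 0.0777 from edgeR). Neuron genes were at 0.892, 0.75 and 0.58 transcripts per Kdr/Gpihbp1 cell and 0.176, 0.236 and 0.183 per remaining cell. The part of such mixed cells in the result was not tested.

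**Figure D2:**
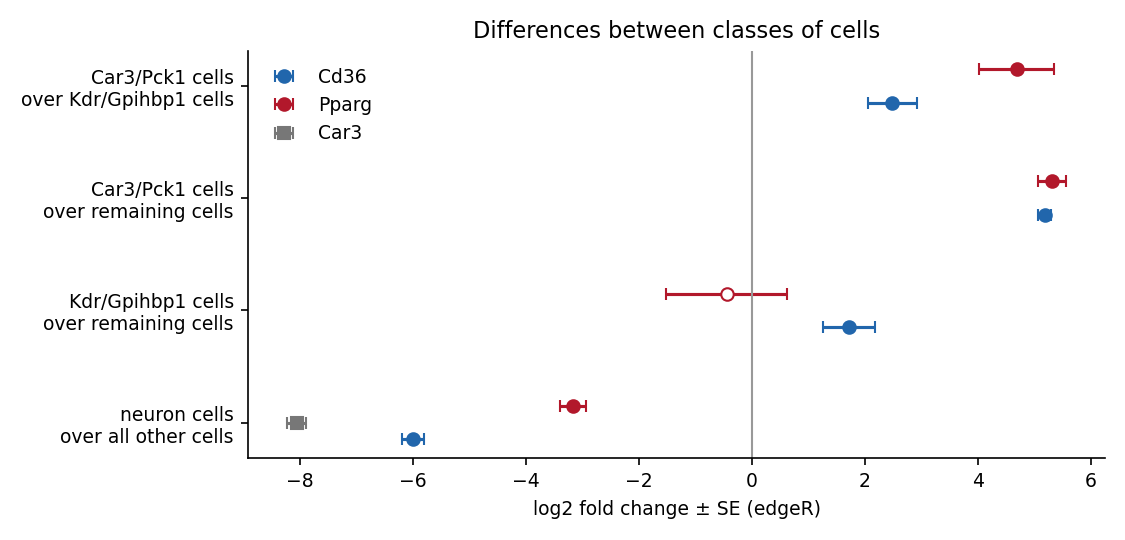
Log2 fold changes with SE (horizontal axis) of *Cd36*, *Pparg* and, for neurons, *Car3* in 4 comparisons of classes, from edgeR on 3 sections; filled points passed an adjusted p of 0.05 and the open point did not. *Cd36* and *Pparg* lie at 5.18 and 5.30 for Car3/Pck1 over remaining cells, and in neurons *Pparg* at -3.16 lies nearer 0 than *Cd36* at -6.00 and *Car3* at -8.05.

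The other panel genes of fat cells and of PPAR gamma moved largely with the pair. Of 12 such genes, a list chosen with earlier results of these data known, 10 were tested between Car3/Pck1 and remaining cells. Of these, 9 were higher and 1 lower, where 28.3% of all 166 genes tested were higher and 44% lower. Their median was 3.04 against -0.83 over all genes. The same 9 and 1 were called with library size alone, DESeq2 and limma. *Cox8b*, a subunit of cytochrome oxidase in brown fat and muscle, was higher by 6.05, *Slc27a2*, a fatty acid transporter and acyl-CoA synthetase, by 5.58, and *Aqp7*, the glycerol channel of fat cells and capillaries, by 5.30. *Timp4*, a metalloproteinase inhibitor, *Retn* (resistin) and *Mgll*, the lipase that ends triglyceride breakdown, were higher by 3.72, 3.24 and 2.73. The caveolar genes *Cavin2* and *Cav1* were higher by 2.84 and 2.45 and the coactivator gene *Ppargc1a* by 2.29.

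Against Kdr/Gpihbp1 cells, 6 of the 12 were tested and 4 were higher, namely *Cox8b* (3.24), *Aqp7* (3.09), *Mgll* (1.99) and *Ppargc1a* (1.40), with a median of 1.70 against 0.50. *Cav1* (0.50) and *Cavin2* (0.36) did not pass. Of all 45 genes tested in this contrast, 40% were higher and 37.8% lower. Between Kdr/Gpihbp1 and remaining cells 0 of 7 tested passed with edgeR (2 at an unadjusted p under 0.05), DESeq2 or limma, and 1, *Cav1*, with library size alone. Their median was 0.92 against -0.33 over all 154 genes tested, of which 7.14% were higher with edgeR, and *Cd36* passed in the edgeR fit.

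Capillary genes were lower in Car3/Pck1 than in Kdr/Gpihbp1 cells. The sorting favours this order, since *Kdr* and *Gpihbp1*, themselves capillary genes, set these classes. Of 11, 4 were tested between Car3/Pck1 and Kdr/Gpihbp1 cells, and *Eng* (-2.32), *Podxl* (-2.25) and *Vwf* (-5.06), the von Willebrand factor gene, were lower in Car3/Pck1 cells. The receptor gene *Tie1* was at -1.21 (adjusted p = 0.0618 from edgeR). Over all 45 genes tested, 37.8% were lower. Summed, these 11 genes were at 55649 to 68712 CPM in Kdr/Gpihbp1 cells, 7925 to 9872 in Car3/Pck1 cells and 14441 to 17647 in remaining cells. Double cells, which the sorting took out of the Car3/Pck1 cells, were at 15429 to 18280 CPM. Of 9 tested between Kdr/Gpihbp1 and remaining cells, *Vwf* (2.33), *Eng* (2.27), *Tie1* (1.86) and *Podxl* (1.66) were higher and none was lower. Over all 154 genes tested, 7.14% were higher. The lymphatic gene *Mmrn1* (1.82) and the mural gene *Rgs5* were also higher there, and the mural gene *Tagln* was lower. By section, *Mmrn1* was at 0, 10929 and 13497 CPM in Kdr/Gpihbp1 cells. Against remaining cells, Car3/Pck1 cells had more *Tie1* (1.64) and less *Vwf* (-2.30) among 8 tested, with a median of 0.27 against -0.83 over all genes. That contrast kept cells with a single *Kdr* or *Gpihbp1* transcript in both classes (906 and 7450 cells), unlike the sums. *Car3* and *Pck1* take much of the total in Car3/Pck1 cells. In the classes of the sums (772 and 7334 cells), the 11 capillary genes were at 0.161, 0.212 and 0.204 per Car3/Pck1 cell. In remaining cells they were at 0.105, 0.144 and 0.158. The order of this pair of classes thus depends on the scale, while Kdr/Gpihbp1 cells were the highest on both (0.892, 1.2 and 1.12 per cell). In Car3/Pck1 cells the 12 fat and PPAR gamma genes summed to 76923 to 82245 CPM against 31703 to 34296 in remaining cells.

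*Cd36* and *Pparg* were in the same cell 247 times (75, 65 and 107 by section). If the genes were spread independently over cells of like depth (5 bins of total transcripts), 67.5 such cells would be expected, and the ratio of observed to expected was 3.93, 3.34 and 3.69 (3.65 ± 0.297). Leaving out neurons, it was 2.58, 2.49 and 2.60. All sections gave more shared cells than expected within these bins. Over all cells the mean ratio was 6.07 with no bins and 2.96 with 10, so it depends on how finely depth is matched. The part of depth within bins was not tested.

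Of the 247 cells with both genes, 195 (78.9%) were Car3/Pck1 cells and 40 (16.2%) double cells, while 11 were remaining cells, 1 was a Kdr/Gpihbp1 cell and 0 were neurons. Within cells with at least 3 of *Car3* and *Pck1*, 235 held both and 229 were expected, with ratios of 1.07, 0.967 and 1.04 (1.02 ± 0.0532), on both sides of 1. With at least 6 of *Car3* and *Pck1*, 191 held both and 189 were expected (ratio 1.01 ± 0.0300). In cells with neither enzyme gene, 1 cell held both where 1.21 were expected. Since 720 of these 920 cells held *Cd36*, the ratio could not rise far above 1 here. *Pparg* was in 29.5%, 32.6% and 35.2% of the cells with *Cd36* and in 17.5%, 33.8% and 23.8% of those without, higher with *Cd36* in sections 1 and 3 and not in section 2.

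**Figure D3:**
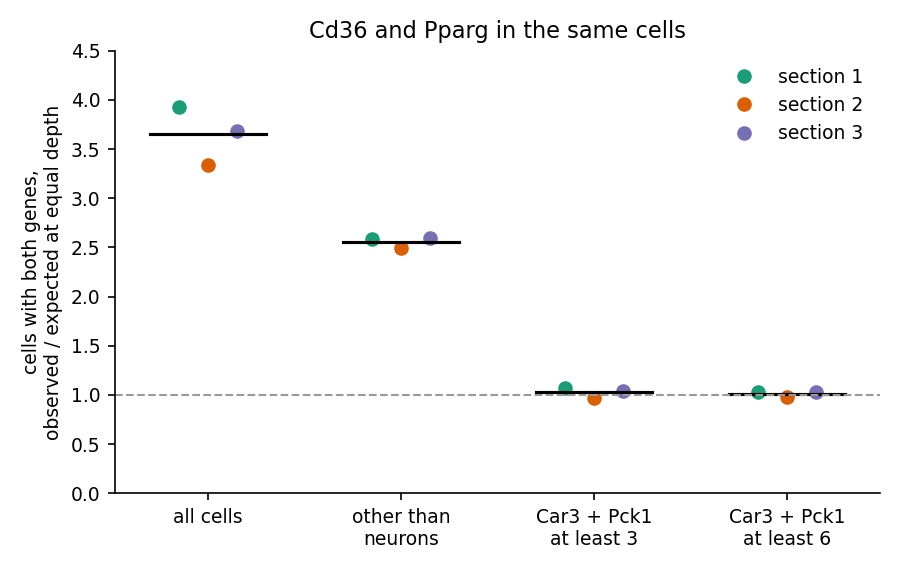
Number of cells with both *Cd36* and *Pparg* divided by the number expected in cells of like depth (vertical axis), for 4 sets of cells, with a point for each of 3 sections, a black line for the mean and a dashed line at 1. The mean ratio is 3.65 over all cells and 1.02 within cells with at least 3 of *Car3* and *Pck1*, where most cells hold *Cd36* and the ratio cannot rise far above 1.

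Taken by the amount of *Cd36*, *Pparg* was detected in 25.5% of the 200 cells with at least 3 of *Car3* and *Pck1* that had no *Cd36*, in 29.1% of 275 with 1 transcript, in 31.3% of 192 with 2, in 32.3% of 189 with 3 to 4 and in 53.1% of 64 with 5 or more. The median totals of these cells were 16, 19, 21.5, 26 and 36. Per 1000 transcripts of genes other than the pair and the class genes, *Pparg* was at 30.0, 33.6, 34.1, 33.2 and 44.7, so that the order was flat up to the bin of 3 to 4 and higher in the uppermost, which held few cells.

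Meetings of each gene with genes of capillaries and fat were counted in the same way. Within cells with at least 3 of *Car3* and *Pck1*, *Cd36* met *Gpihbp1* in 1.13 ± 0.0801 and *Kdr* in 1.11 ± 0.0836 times the expected number of cells, and every section was above 1. *Pparg* met *Gpihbp1* in 0.811 ± 0.266 and *Kdr* in 0.969 ± 0.234 times the expected number, with sections on both sides of 1. With *Aqp7* the ratio was 1.21 ± 0.180 for *Pparg*, above 1 in every section, and 1.07 ± 0.0822 for *Cd36*. The section ranges of *Cd36* and *Pparg* overlapped for each of these genes, and the difference was not tested. In cells with neither *Car3* nor *Pck1*, *Cd36* was found with *Gpihbp1* in 6 cells where 0.744 was expected (ratio 7.95 ± 0.915) and *Pparg* in 0 where 0.175 was expected.

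Neurons held few transcripts of either gene. *Cd36* had 6, 6 and 17 transcripts in the neurons of sections 1, 2 and 3, or 1.41, 1.38 and 3.14 per 100 neurons. *Pparg* had 10, 12 and 23, or 2.34, 2.76 and 4.24 per 100. *Car3*, the marker of the metabolic cells, had 6, 6 and 9, or 1.41, 1.38 and 1.66 per 100, and negative control probes, summed over all of them, gave 0.937, 1.61 and 2.58 per 100. *Cd36* thus equalled *Car3* in number in sections 1 and 2 and exceeded it in section 3. Over all neurons together, *Pparg* was above both in every section.

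*Pparg* was the highest of these genes when the values were set against the level in cells with at least 3 of *Car3* and *Pck1*. That level was 0.398 transcripts per cell for *Pparg*, 1.79 for *Cd36* and 6.38 for *Car3*, so the percentages depend on it as well as on the neurons. Per neuron, *Pparg* was at 7.55%, 6.46% and 9.30% of that level (7.77% ± 1.43), *Cd36* at 0.817%, 0.887% and 1.49% (1.07% ± 0.371) and *Car3* at 0.234%, 0.211% and 0.251% (0.232% ± 0.0199). *Pck1* was at 0.0875% ± 0.0196 on 3 transcripts. *Car3* and *Pck1* chose the cells of the denominator, so their percentages are lowered by the choice. In sections 1 and 2 *Cd36* and *Car3* had equal counts in neurons, so their percentages differ there through the denominator alone. The ranges of *Pparg*, *Cd36* and *Car3* did not overlap, and with 3 sections an exact sign-flip test cannot go below p = 0.25.

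Of all *Cd36* and *Pparg* transcripts in neurons, *Pparg* made up 62.5% (95% interval 38.6 to 81.5), 66.7% (43.7 to 83.7) and 57.5% (42.2 to 71.5), against 15.3% (12.6 to 18.3), 21.6% (18.3 to 25.3) and 17.8% (15.5 to 20.5) in cells with at least 3 of *Car3* and *Pck1*. The intervals were apart in every section. Over all neurons of each section, the mixture of both genes thus differed from that of the cells richest in them by more than these intervals. They cover counting error only, and transcripts are not replicates. Neurons with 50 or more neuron-gene transcripts held 25 *Pparg* and 2 *Cd36* transcripts. Those with 5 to 9, 10 to 19 and 20 to 49 held 3, 9 and 8 *Pparg* against 6, 9 and 12 *Cd36*. Whether the mixture also differed without the fullest neurons was not tested. No neuron held both, where 0.837 was expected, and 0 of 1404 neurons allows a share of up to 0.214%. In the 24 neurons with *Car3* or *Pck1* there were 0 transcripts of *Cd36*, which allows a share of up to 12.5% of cells, and 2 of *Pparg*.

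Compared with all other cells, neurons had less *Cd36* (log2 fold change -6.00, SE 0.19, adjusted p = 4.9e-32 from edgeR), less *Pparg* (-3.16, SE 0.23, adjusted p = 8.29e-18) and less *Car3* (-8.05, SE 0.16, adjusted p = 2.86e-40), each lower in 3 of 3 sections. Of 280 genes tested, 45.7% were lower and 38.6% higher, with a median of -0.33, and with library size alone the median was -1.13 and the 3 genes were at -6.80, -3.97 and -8.86. Of the 12 fat and PPAR gamma genes, 10 were tested, of which 6 were lower, 2 were higher and 2 were not called. With library size alone, 8 were lower and none was higher, so calls on the list's other genes depend on the scaling, while those on *Cd36* and *Pparg* kept their sign and their call in every alternative run.

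*Pparg* was uneven among neurons. In neurons with 5 to 9, 10 to 19, 20 to 49 and 50 or more neuron-gene transcripts (388, 417, 420 and 179 cells), it was at 0.773, 2.16, 1.90 and 14.0 per 100 cells. The uppermost group had 15.4, 8.51 and 16.1 per 100 in sections 1, 2 and 3, and the group of 20 to 49 had 0, 2.5 and 2.84, with no overlap. These 179 cells held 25 of the 45 *Pparg* transcripts of neurons, in 22 cells. *Cd36* was at 1.55, 2.16, 2.86 and 1.12 per 100 over the same groups, and *Car3* at 1.29, 0.959, 1.67 and 2.79. Control probes were at 1.03, 1.20, 2.62 and 2.79 per 100.

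The median totals of these neurons were 44, 73, 137 and 308 transcripts, and the part of depth in the *Pparg* series was not tested. Scaled to all transcripts of the group, *Pparg* was at 168, 281, 130 and 440 CPM. The uppermost group was at 514, 268 and 496 CPM in sections 1, 2 and 3 and the group of 10 to 19 at 307, 361 and 178, so that on this scale the uppermost group was not the highest in section 2. Whether these transcripts belong to the neurons or to what lies over them was not tested.

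**Figure D4:**
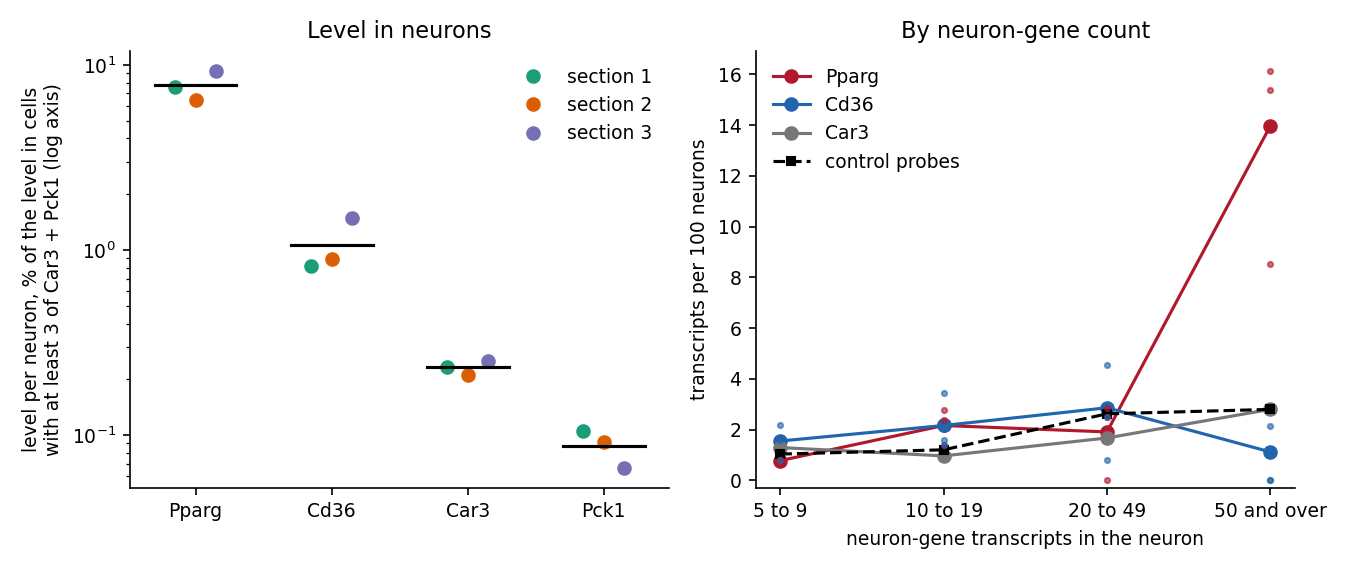
Left, level per neuron as a percentage of the level in cells with at least 3 of *Car3* and *Pck1* (log axis) for 4 genes, with a point for each section and a line for the mean. Right, transcripts per 100 neurons against the count of neuron-gene transcripts in bins, with large points for all sections together and small points for single sections of *Pparg* and *Cd36*. *Pparg* lies at 7.77% on the left, above *Cd36* at 1.07% and *Car3* at 0.232%, and reaches 14.0 per 100 in the fullest neurons on the right.

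Traces of *Cd36* were also found among the remaining cells. Among cells other than neurons with none of *Car3*, *Pck1*, *Kdr* and *Gpihbp1* and at least 2 transcripts of a marker list, those with macrophage and myeloid genes had 14.3, 4.44 and 12.7 *Cd36* transcripts per 100 cells in sections 1, 2 and 3 (14 transcripts in 135 cells). Those with fibroblast genes had 2.91, 2.44 and 4.55 (24 in 697 cells), and those with genes of Schwann cells and satellite glia 1.66, 2.82 and 2.09 (44 in 2033 cells). The macrophage and fibroblast ranges met, and the lowest macrophage value rests on 2 transcripts. Cells with capillary genes but no *Kdr* or *Gpihbp1* had 1.18 per 100 (2 in 170 cells), mural cells 1.48 (2 in 135) and cells with lymphatic genes 5.56 (2 in 36).

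*Pparg* had fewer transcripts than *Cd36* in these cells, except in those with capillary genes. It was at 2.35 per 100 in cells with capillary genes (4 transcripts), 1.43 in those with fibroblast genes (10), 0.741 in those with macrophage genes (1) and 0.590 in those with glia genes (12), and at 0 in cells with mural or lymphatic genes. The macrophage group, highest for *Cd36*, was thus not the highest for *Pparg*, though counts this small leave the order of the groups unsettled.

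The genes most like the pair across cells were the same for both. Among 215 genes with at least 100 transcripts, in 4488 cells with at least 10, the mean correlation over sections with *Cd36* was 0.708 for *Car3*, 0.634 for *Pck1*, 0.546 for *Hp* (haptoglobin), 0.420 for *C3* (complement component) and 0.339 for *Pparg*. With *Pparg* it was 0.430 for *Car3*, 0.423 for *Pck1*, 0.339 for *Cd36*, 0.324 for *Hp* and 0.227 for *C3*. Cells share section, depth and neighbours, so these values describe and are not tests. *Hp* and *C3*, secreted proteins made by liver and fat, were higher in Car3/Pck1 than in remaining cells by 6.23 and 4.99 on the log2 scale, and higher than in Kdr/Gpihbp1 cells by 4.64 and 3.55.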

How the data were processed

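Xenium counts of 3 vagal ganglia sections were used. The counts are whole transcripts per gene and cell as deposited by the authors, decoded and assigned to segmented cells with no normalization. The methods name Xenium Ranger and Seurat, and filters on cells are not given in the sources used here. All columns were matched to a section by the start of the cell names (0 not mapped), and no doublet caller was run, so a segmented cell can hold transcripts of its neighbours.

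*Cd36*, *Pparg*, the class genes and all lists were chosen with earlier results of these data known. Classes were set by counts of 8 genes. The planned threshold of 2 *Kdr* and *Gpihbp1* transcripts left 1, 7 and 3 Kdr/Gpihbp1 cells, under the minimum of 20 per section, so the alternative of 1 is reported for levels and for comparisons with these cells. Counts were summed per section and class, class genes removed (for neurons, the 4 neuron genes), and tested two-sided with edgeR 4.0.16 (R 4.3.3) using TMM, filterByExpr and the section as a block, with Benjamini-Hochberg correction over all genes tested at 0.05. The block was used because both classes of a comparison come from the same section. The test was run on simulated sums whose classes were alike apart from a set of changed genes. Those changes were smaller than the largest seen here, so the run does not cover the wide differences between these classes. Alternatives were DESeq2 1.42.0, limma 3.58.1 on log2(CPM + 1), library size alone, no filter, no block, other thresholds and each section left out. Named genes were the class genes, the lists and the 5 genes most correlated with each member. A gene of the fat and PPAR gamma list is counted but its own values are not reported here. Sums held 593 to 815 transcripts for Kdr/Gpihbp1 cells and 4862 to 7198 for Car3/Pck1 cells. Python 3.11.15, numpy 2.4.6, pandas 2.3.3 and scipy 1.17.1 gave all other values.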

Additional observations from a re-analysis of the deposited data

How the results depend on the processing

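Depth limits these results: the median cell had 7 to 9 transcripts, and *Pparg* in Kdr/Gpihbp1 cells rests on 2. Of the fold changes of *Cd36* and *Pparg* under all alternatives, 116 kept their direction and side of the threshold, 7 lost the call and 2 reversed, and all 14 of *Car3* kept theirs; the causes were not tested. Alternatives that take cells with at least 20 transcripts, 1 neuron-gene transcript or 1 *Car3* and *Pck1* transcript as a threshold were chosen after seeing the data.

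For Kdr/Gpihbp1 over remaining cells, *Cd36* lost its call with limma (1.93), with no filter (1.15) and with a *Car3* and *Pck1* threshold of 2 (1.65) or 1 (1.65), and lay between 1.09 and 2.22 when 1 section was dropped. *Pparg* there turned to 1.16 with a threshold of 5 and lay between -0.95 and 0.056 when 1 section was dropped, positive without section 3 (0.056). For Car3/Pck1 over Kdr/Gpihbp1 cells, *Cd36* lay between 2.50 and 3.19 in the same way and lost its call without section 3. Without the section as a replicate block no call on *Cd36* or *Pparg* changed (2.44 and 4.68 for Car3/Pck1 over Kdr/Gpihbp1 cells, 5.17 and 5.31 over remaining cells, 1.74 and -0.43 for Kdr/Gpihbp1 over remaining cells, -5.99 and -3.16 for neurons).

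The share of *Cd36* in cells with at least 3 of *Car3* and *Pck1* became 87.8% and 94.2% in cells with at least 10 and 20 transcripts and 80.7% with a neuron threshold of 1, and that of *Pparg* 81.8% and 83.9% in cells with at least 10 and 20. Per neuron, *Cd36* became 1.70% with a neuron threshold of 1. *Pparg* became 9.97% with a neuron threshold of 10, 6.10% with 1 and 5.98% in cells with at least 20 transcripts. *Car3* became 0.202% with a neuron threshold of 3, 0.893% with 1 and 0.180% in cells with at least 20. The ratio of shared cells over all cells became 2.90 and 2.24 in cells with at least 10 and 20 transcripts, 6.07 with no depth bins and 2.96 with 10 bins. Without neurons it became 2.35 and 1.79, 5.96 and 2.48 under the same settings, and 2.34, 2.98 and 2.13 with neuron thresholds of 3, 10 and 1. It was moved by no alternative within cells with at least 3 of *Car3* and *Pck1*.

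Counts of called genes moved over 1.5 times as follows. With no filter, 33 genes were higher in Car3/Pck1 than in Kdr/Gpihbp1 cells, against 18, and with the class genes kept 26 were lower, against 17. Without section 1, 18 were lower in Car3/Pck1 than in remaining cells, against 73. For Kdr/Gpihbp1 over remaining cells the counts ranged over 0 to 17 higher and 0 to 24 lower, against 11 and 11, and were 0 and 0 without section 3. With limma 71 were higher in neurons, against 108. Library size alone moved the split in neurons to 72 higher and 168 lower, against 108 and 128. In the comparisons with Kdr/Gpihbp1 cells, a threshold of 3 for *Kdr* and *Gpihbp1* and the limit of 20 transcripts left too few cells for a fit and were not run.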
